A study of Dicentrarchus labrax with 10 samples.

Results

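An hsp47 sequence and 3 myosin heavy chain sequences of a European sea bass (Dicentrarchus labrax) array were followed in the gonads of 10 fish. The members were chosen on measured values: the 4 listed probes were picked with their levels in these gonads in view, and every other probe carrying the same sequence identifier was added. That gave 12 probes of 4 sequences, out of 24200 probes of 11705 sequences on the array. The listed probes were CUST_3016_PI416070213 for hsp47, CUST_20632_PI416070213 for slow myosin heavy chain 3, CUST_12705_PI416070213 for skeletal muscle myosin heavy chain and CUST_21289_PI416070213 for the sequence annotated only as myosin heavy chain. Each sequence was represented by 3 probes, and all 12 probes counted as reliable in all 10 fish. The rule asked only for a foreground of at least 2 times background in at least 50% of unsaturated, unflagged spots. Background medians of the arrays were 18 to 21, while the nonspecific signal of their dark corners had medians of 46 to 54. A spot with nonspecific signal alone could thus pass, so this count does not show that a probe was detected. None of the 4 sequence identifiers was found in the gene table of the dlabrax2021 assembly, so their genome positions and sequences are not given here.

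Fish of the high temperature group (HT, n = 5) were kept at 21 °C from 20 to 60 days post hatch (dph), and fish of the low temperature group (LT, n = 5) at 15 °C over the same days. Both groups began at 17 °C, shared one temperature again after 60 dph, and were sampled at 170 dph, when the gonads were differentiating. All 10 fish were putative females in the labels, chosen in the study for high cyp19a1a expression, and each was hybridised alone with a single dye. Fish are named here by group and replicate number, HT 1 to HT 5 and LT 1 to LT 5. A single tank held each group, so the tank cannot be told apart from the temperature. Every p-value for HT against LT compares fish between 2 tanks, and the correlations over 10 fish pool both tanks. The members were compared between the groups to ask whether a difference remained after the early thermal exposure had ended.

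Median foreground intensity was 95 to 234.5 on the HT arrays and 130 to 219.5 on the LT arrays. The background medians were 18 to 21, with 0 saturated spots on each array. HT 1 stood apart: its array correlated at a mean of 0.842 with the others, against 0.920 to 0.947 for the remaining 9, and 13.9% of its spots were flagged. The study left one HT fish out, and its heatmap shows HT 2 to HT 5, so group differences are given for 9 fish without HT 1 and then for all 10. Each slide carried 1 HT and 1 LT array of the same replicate number, always in the same positions, so position and temperature cannot be told apart. The number of arrays limits the precision of every value.

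Hsp47 is a chaperone of the endoplasmic reticulum that binds newly made procollagen and is needed for its folding into the triple helix. It is expressed in cells that secrete collagen, and in many vertebrates it is induced by heat. Sarcomeric myosin heavy chains are the motor subunits of muscle thick filaments. Slow isoforms mark slow-twitch and cardiac fibres, and other sarcomeric isoforms mark fast skeletal fibres. The name of the sequence annotated only as myosin heavy chain does not say whether it is sarcomeric. These are bulk tissue samples, in which fewer cells of a type and less RNA per cell cannot be told apart.

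Hsp47 was well above background in both spots of its listed probe in all 10 gonads. Values are normalized log2 intensities, and are compared only within a probe. The listed probe read 7.60, 9.83, 9.61, 9.57 and 9.52 in HT 1 to HT 5, against 8.82, 9.90, 8.12, 8.49 and 9.08 in LT 1 to LT 5. The groups overlapped: HT 1 was the lowest fish of all and LT 2 the highest. From HT 1 to LT 2 the intensity differed 4.91-fold. HT 2 to HT 5 lay within a narrow band, with a mean of 9.63 ± 0.14 (SD, n = 4), against 8.88 ± 0.67 in the LT group (SD, n = 5). With HT 1 the HT mean was 9.23 ± 0.92 (SD, n = 5). The spread between fish was larger than that between the 2 spots of the probe on an array, with an SD of 0.78 between the 10 fish and 0.13 between spots. The other hsp47 probes gave the same picture, with correlations among the 3 probes of 0.976 to 0.994 over 10 fish. In one of them, CUST_3017_PI416070213, HT 5 (9.09) stood below LT 5 (9.18).

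The listed probe of slow myosin heavy chain 3 read 7.10, 9.21, 9.31, 8.72 and 9.04 in HT 1 to HT 5, against 6.79, 8.58, 6.52, 6.80 and 6.86 in LT 1 to LT 5. The values fell into 2 separate sets of 5 fish. HT 2 to HT 5 and LT 2 read 8.58 to 9.31, HT 1 and the 4 other LT fish read 6.52 to 7.10, and the gap of 1.48 between the sets was larger than the spread within either. The other probes of the sequence split the same fish, with gaps of 1.35 for CUST_20633_PI416070213 and 1.13 for CUST_20634_PI416070213. In the low set the signal was near background, so that no fold is given against it: of the 2 spots of the listed probe, 2 were well above it in HT 1 and LT 4, 1 in LT 1 and LT 5, and 0 in LT 3. The SD between spots was 0.26, against 1.16 between fish.

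Skeletal muscle myosin heavy chain was faint. Its listed probe read 6.61, 7.00, 6.80, 6.96 and 6.71 in HT 1 to HT 5, against 6.45, 6.75, 6.50, 6.53 and 6.50 in LT 1 to LT 5. Both of its spots were well above background in 3 HT fish (HT 2, HT 3 and HT 4), 1 spot was in LT 2, and none was in the other 6 fish, so most of these values are readings close to background, and no fold between fish is given. The arrays of HT 2, HT 3 and HT 4 also had the highest nonspecific signal, with dark corner medians of 53.5 to 54, against 46.5 to 49 on the other HT arrays and 46 to 50 on the LT arrays. Their shares of spots well above background were the highest as well, at 85.6% to 88.8%, against 67.2% and 71.8% on the other HT arrays and 75.6% to 83.8% on the LT arrays. The part of this signal in the readings of the probe was not tested. The groups overlapped only in that HT 1 (6.61) and HT 5 (6.71) stood below LT 2 (6.75). The other probes of the sequence followed it, with correlations of 0.944 to 0.971 over 10 fish.

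The sequence annotated only as myosin heavy chain was well above background in both spots in all 10 fish and was ordered differently. Its listed probe read 8.10, 8.28, 8.32, 8.05 and 7.86 in HT 1 to HT 5, against 7.57, 8.59, 8.61, 8.30 and 7.19 in LT 1 to LT 5. The HT values lay inside the range of the LT values, whose lowest fish (LT 5) and highest fish (LT 3) were also the lowest and highest of all 10. The means were 8.12 ± 0.19 in the HT group and 8.05 ± 0.64 in the LT group (SD, n = 5 each). Its 3 probes did not follow each other closely, unlike those of the other sequences. The listed probe correlated at 0.37 with CUST_21290_PI416070213 and at 0.46 with CUST_21291_PI416070213 over 10 fish, and these correlated at 0.76 with each other. In CUST_21290_PI416070213 the highest fish was LT 2 (7.73) and LT 3 read 6.96. A statement about this sequence therefore depends on which of its probes is read.

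**Figure D1:**
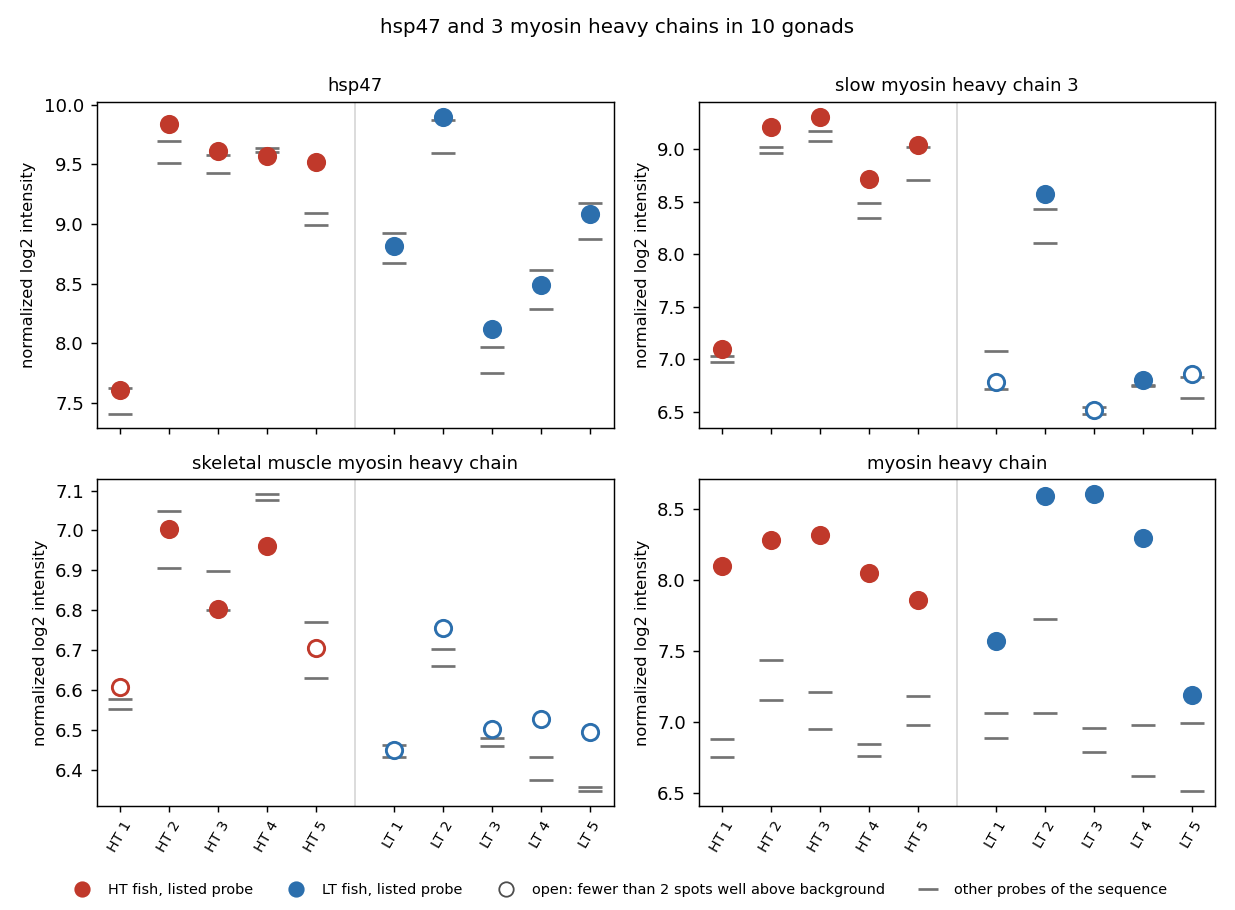
Normalized log2 intensity (y axis) of hsp47 and the 3 myosin heavy chain sequences in each HT (red, left) and LT (blue, right) fish, with circles for the listed probe, open where fewer than 2 of its spots were well above background, and grey dashes for the other probes. HT 2 to HT 5 and LT 2 form the upper set of slow myosin heavy chain 3 at 8.58 to 9.31, and LT 2 is the highest fish for hsp47 at 9.90.

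The 5 fish with the highest slow myosin heavy chain 3 were also the 5 with the highest hsp47. They were HT 2, HT 3, HT 4, HT 5 and LT 2. For hsp47 the 5th and 6th fish were 0.44 apart in the listed probe, but 0.12 in CUST_3018_PI416070213 and 0.09 in CUST_3017_PI416070213. The SDs between the spots of these 2 probes were 0.09 and 0.11 in the same order. Hsp47 itself had no separate sets: in the listed probe LT 3 (8.12) and HT 1 (7.60) lay farther apart than the 5th and 6th fish. Of the 6 probes of these 2 sequences, 5 had these same 5 fish highest. The set was taken from the listed probe of slow myosin heavy chain 3, which therefore matches itself. The other probes of its sequence followed it, with correlations of 0.994 and 0.996 over 10 fish. Of hsp47, CUST_3016_PI416070213 and CUST_3018_PI416070213 had these 5 fish highest, as did 4.27% of all 24200 probes (1034 probes). The exception among the 6 was CUST_3017_PI416070213 of hsp47, in which LT 5 took the place of HT 5. The normalized values of skeletal muscle myosin heavy chain also put these 5 fish first, but the 5th and 6th were 0.10 apart, close to the SD of 0.09 between its spots. The other probes of this sequence had the same 5 fish highest, with gaps of 0.05 in CUST_12703_PI416070213 and 0.15 in CUST_12704_PI416070213. The SDs between their spots were 0.06 and 0.16 in the same order. HT 5 had no spot of the listed probe well above background. Its raw foreground was 60 and 59, against 66 and 64 in LT 3, but its array was dimmer, with a median of 95 against 177. Raw foreground of the listed hsp47 probe was likewise lower in HT 5 (344 and 296) than in LT 5 (367 and 510). As most readings of the skeletal sequence were close to background, its order is not read as a result. The listed probe of the sequence annotated only as myosin heavy chain had HT 2, HT 3, LT 2, LT 3 and LT 4 highest. As the members were chosen with these values in view, the counts are a description.

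Within the 2 sets of slow myosin heavy chain 3, its order of the fish and that of hsp47 did not match. In the listed probes, LT 2 was the highest of the upper 5 fish for hsp47 and the lowest of them for slow myosin heavy chain 3. There, HT 1 was the lowest of the other 5 fish for hsp47 (7.60) and the highest of them for slow myosin heavy chain 3 (7.10). Some other probes differed: in CUST_3018_PI416070213 of hsp47, HT 4 (9.6017) stood above LT 2 (9.5975). In CUST_20633_PI416070213 of slow myosin heavy chain 3, HT 1 (7.03) ranked 7 of the 10 fish and was not the highest of the low set. The order of slow myosin heavy chain 3 in the low set rests on signal near background, while hsp47 was well above it there and spanned 7.60 to 9.08. As slow myosin heavy chain 3 fell into 2 sets of 5 fish, each too small for a correlation, no coefficient or p is given for this pair. Whether the 2 genes vary together beyond having the same 5 fish highest was not tested, nor was a difference between this pair and the other pairs. On the slides, hsp47 was higher in the HT fish on 3 of 5, slow myosin heavy chain 3 on 5 of 5, skeletal muscle myosin heavy chain on 5 of 5 and the remaining myosin on 2 of 5. The HT minus LT differences of hsp47 were -1.21, -0.06, 1.49, 1.08 and 0.44 on slides 1 to 5, and those of slow myosin heavy chain 3 were 0.31, 0.63, 2.79, 1.92 and 2.18. Those of skeletal muscle myosin heavy chain were 0.16, 0.25, 0.30, 0.43 and 0.21. Many of the values behind the differences of these 2 myosins were near background, so the differences are not read as folds. On slides 1 and 5, neither fish had a spot of the skeletal probe well above background. The share of all probes higher in HT on every slide is not given here. The counts of 5 of 5 are therefore a description. Hsp47 and slow myosin heavy chain 3 shared the sign on 3 slides, and slides 3, 4 and 5 held the 3 highest HT minus LT values for both.

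The other 3 pairs that leave out slow myosin heavy chain 3 had no such separate sets, and their correlations were computed. Hsp47 and skeletal muscle myosin heavy chain gave Pearson's r = 0.68 (permutation p = 0.0223, adjusted over 3 pairs 0.0668) and Spearman's rho = 0.70 (permutation p = 0.0300, adjusted 0.0901) over 10 fish. The pair did not pass after adjustment. Both spots of the skeletal probe were well above background in only 3 of 10 fish. Coefficients with this sequence therefore rest mostly on readings close to background and are not read as a result. Without HT 1 and LT 3, the 2 fish farthest from the median of hsp47, r was 0.81 over 8 fish (permutation p = 0.0176, not adjusted). With normexp and 75th percentile scaling it was 0.23 over 10 fish (permutation p adjusted over 3 pairs 0.774). Hsp47 and the sequence annotated only as myosin heavy chain gave r = 0.02 (permutation p = 0.929, adjusted 0.929) and rho = 0.13 (permutation p = 0.735, adjusted 0.735), and r = 0.45 over 8 fish without the same 2 (permutation p = 0.270). With the mean of all 3 probes of each sequence it was 0.36 over 10 fish (permutation p adjusted over 3 pairs 0.312). Skeletal muscle myosin heavy chain and that sequence gave r = 0.34 (permutation p = 0.331, adjusted 0.497) and rho = 0.31 (permutation p = 0.391, adjusted 0.586), and r = 0.45 over 8 fish without HT 2 and HT 4 (permutation p = 0.266). All permutation tests were two-sided. Within slides, with slide means removed, the 3 coefficients were 0.55, -0.46 and -0.07 in the same order (exact p adjusted over 3 pairs 0.563, 0.563 and 0.875). The pairs were proposed with these values in view, so the p-values are not independent evidence.

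**Figure D2:**
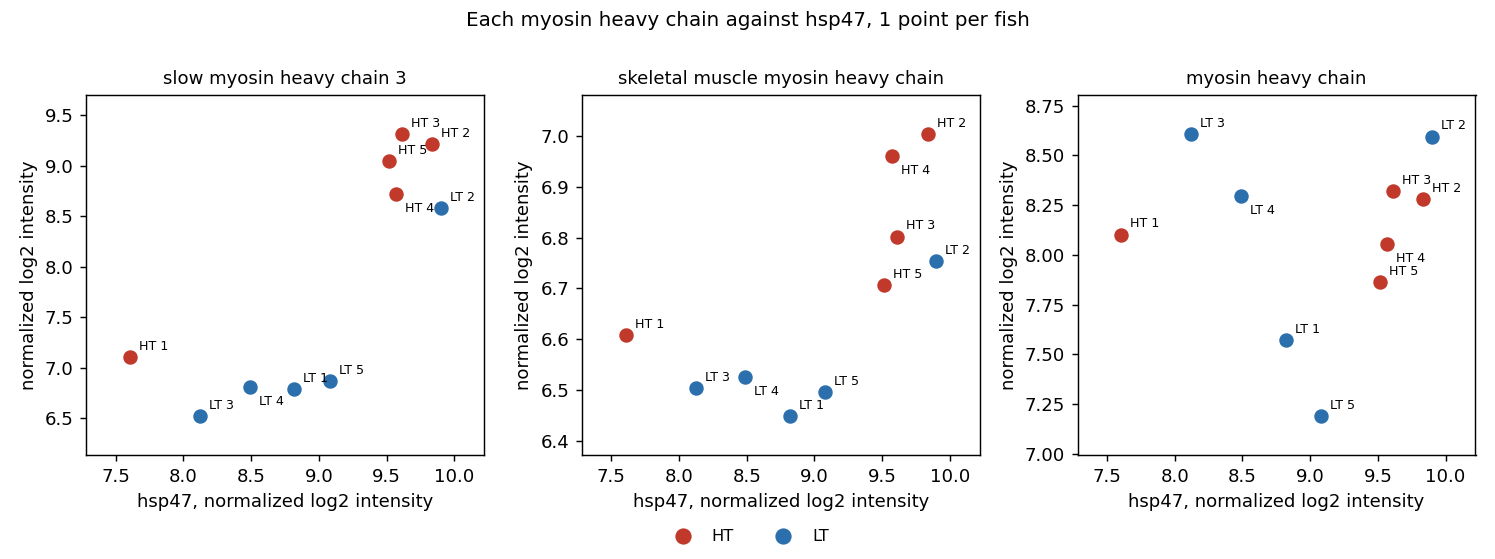
Normalized log2 intensity of each myosin heavy chain sequence (y axis) against that of hsp47 (x axis), listed probes, 1 point per fish, HT in red and LT in blue. The left panel shows 2 separate sets of 5 fish, and the right panel shows LT 3 highest (8.61) at a low hsp47 value of 8.12.

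In the comparison of the thermal groups none of the 12 member probes was called. A call needed an adjusted p below 0.05 over all 24200 probes in limma, a fold change above 1.2 and reliability in every fish compared. Over 9 fish limma called 0 of 24200 probes (0.0%), with 4424 at an unadjusted p below 0.05. Over all 10 fish it also called 0 (0.0%), with 1696 at an unadjusted p below 0.05. The study, with the same thresholds, reported differentially expressed genes between HT and LT, so the count of 0 differs from the published result. Its genes included wnt1 inducible signaling pathway protein 1 and none of the members. The reason for the difference was not tested. Of the 12 member probes, 8 had an unadjusted p below 0.05 over 9 fish and 6 over 10. All 12 had a higher mean in HT than in LT over 9 fish and 11 over 10, with median log2 fold changes of 0.52 and 0.35. Over all 24200 probes, 12344 and 12825 were higher in HT, with medians of 0.01 in both cases. The 12 probes read only 4 sequences, which were chosen with these values in view, so the member counts are not independent readings.

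Slow myosin heavy chain 3 differed most between the groups. HT 2 to HT 5 averaged 9.07 ± 0.26 (SD, n = 4) and the LT fish 7.11 ± 0.83 (SD, n = 5). The log2 fold change was 1.96 (SE 0.38, limma adjusted p = 0.107) over 9 fish and 1.57 (SE 0.50, limma adjusted p = 0.607) over all 10. With values near background in the LT fish, it reached 3.94 with the processed signal (limma adjusted p = 0.0239). Every one of the 4 HT fish stood above all 5 LT fish, by 8.72 against 8.58 at the closest, which held for 4 of the 12 member probes (the 3 of slow myosin heavy chain 3 and 1 of skeletal muscle myosin heavy chain) and for 3.96% of all probes. With HT 1, at 7.10, the groups overlapped, and no member probe had all 5 HT fish above all 5 LT fish. The share of all probes that did so over 10 fish is not given here. That count is therefore not read as a result about the members.

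For hsp47 the log2 fold change was 0.75 (SE 0.31, limma adjusted p = 0.248) over 9 fish and 0.35 (SE 0.46, limma adjusted p = 0.965) over 10. The difference was thus smaller with HT 1, the fish with the lowest hsp47. For skeletal muscle myosin heavy chain it was 0.32 (SE 0.10, limma adjusted p = 0.176) over 9 fish and 0.27 (SE 0.10, limma adjusted p = 0.674) over 10. For this faint probe the size depended on the processing: over 9 fish it was 0.68 with a normexp offset of 0, 1.03 with normexp and 75th percentile scaling (limma adjusted p = 0.0359) and 2.71 with the processed signal (limma adjusted p = 0.0262). For the sequence annotated only as myosin heavy chain it was 0.08 (SE 0.30, limma adjusted p = 0.915) over 9 fish and 0.07 (SE 0.28, limma adjusted p = 0.996) over 10. Two-sided exact permutation tests of the group labels over 9 fish gave p = 0.0714 for hsp47, 0.0159 for slow myosin heavy chain 3, 0.0238 for skeletal muscle myosin heavy chain and 0.833 for the remaining sequence. Over all 10 fish they gave 0.524, 0.0159, 0.0238 and 0.825 in the same order. These exact p-values are not adjusted, and the members had been chosen with the group values known.

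The calls depended on LT 2 and on the processing. Without LT 2, over 4 HT and 4 LT fish, limma called 698 probes, among them 5 of the 12 member probes. They were the 3 probes of slow myosin heavy chain 3, CUST_3016_PI416070213 of hsp47 and CUST_12704_PI416070213 of skeletal muscle myosin heavy chain. Slow myosin heavy chain 3 then had a log2 fold change of 2.33 (SE 0.15, limma adjusted p = 0.000492) and hsp47 one of 1.01 (SE 0.20, limma adjusted p = 0.0379). With HT 1 and LT 2 both out, the remaining HT fish all belonged to the high set of slow myosin heavy chain 3 and the LT fish to its low set. The same 2 fish were the lowest and the highest for the listed hsp47 probe. Both p-values thus depend on which fish were removed and are not read as evidence of a group difference. The other hsp47 probes did not pass without LT 2, with limma adjusted p-values of 0.138 and 0.0817. With LT 2 kept, limma called 6 of the 12 member probes and 2345 of all 24200 with the processed signal at 75th percentile scaling. It called 7 and 1658 with normexp at that scaling, and 6 and 1856 with array weights over all 10 fish. The 2 scalings moved the median log2 fold change over all probes to 0.30 and 0.41, so these member counts are to be read against that shift.

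**Figure D3:**
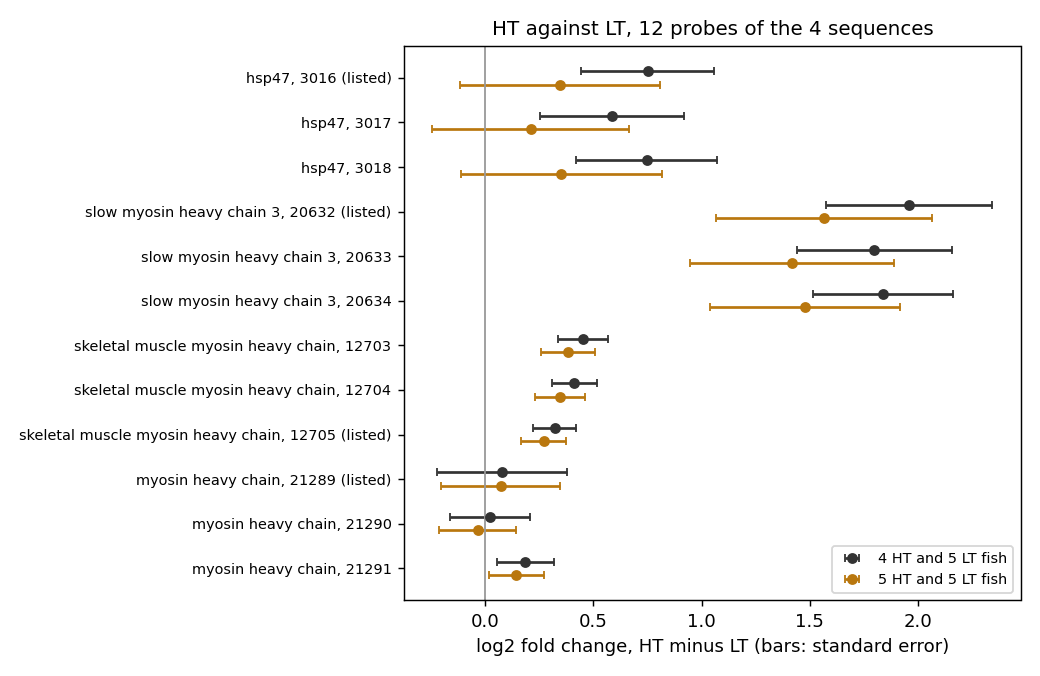
Log2 fold change of HT minus LT (x axis, bars show the standard error) for the 12 probes of the 4 sequences, over 4 HT and 5 LT fish (black) and over 5 HT and 5 LT fish (orange). The 3 probes of slow myosin heavy chain 3 lie farthest to the right, the listed one at 1.96 and 1.57.

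The gonad markers amh and dmrt1 had the same 5 fish highest, as did 4.27% of all 24200 probes. Anti-Müllerian hormone (amh), which is secreted by the supporting cells of the gonad, read 6.55, 11.31, 11.02, 9.79 and 10.74 in HT 1 to HT 5 (CUST_20077_PI416070213), against 7.25, 11.03, 6.78, 6.74 and 6.82 in LT 1 to LT 5. Its 5 highest fish were again HT 2 to HT 5 and LT 2. So were those of dmrt1, a transcription factor of male gonad development, which read 7.18 to 7.74 in HT 2 to HT 5 and 7.84 in LT 2, against 6.90 in HT 1 and 6.67 to 6.86 in the other LT fish (CUST_10631_PI416070213). Dmrt1 had no separate sets: its 5th and 6th fish were 0.28 apart, less than the spread within its 5 highest. The low values of both genes were near background. Of the 2 spots of amh, 0 were well above it in HT 1 and 1 in LT 4 and LT 5. For dmrt1, 0 were in LT 5 and 1 in HT 1 and LT 3. The other gonad marker probes, a further amh sequence and SOX-8, stayed between 6.48 and 7.27 and did not share these 5 fish. The part of supporting or other cells in the hsp47 and myosin values was not tested.

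Of the 4 muscle marker probes, none had the same 5 fish highest. Only 4.27% of all 24200 probes had them, so this count in so short a list is not read as a result about muscle. Cardiac myosin light chain-1 stayed between 6.39 and 6.75 and obscurin, a giant protein of the sarcomere, between 6.44 and 6.83, with both spots well above background only in HT 2 for the light chain and only in LT 2 for obscurin. Myosin light chain 1 read 8.96 in HT 4, against 6.55 to 7.55 in the other 9 fish. Sarcoglycan gamma, a membrane protein of striated muscle, read 7.08 to 8.11 in the HT fish and 7.39 to 8.23 in the LT fish. The summed intensity of the 4 probes was 499 to 950 in HT 2 to HT 5, 458 in HT 1 and 522 to 633 in the LT fish. Pancreas markers (3 probes, summed intensity 344 to 651 in HT 2 to HT 5, 348 in HT 1 and 416 to 804 in the LT fish) and liver markers (3 probes, 1105 to 1636, 3034 and 2639 to 4631 in the same order) did not share the 5 fish either. One liver probe, betaine homocysteine S-methyltransferase, had the reverse split: HT 1, LT 1, LT 3, LT 4 and LT 5 were its 5 highest fish. Its 5th and 6th fish were 0.42 apart. The share of all probes with the reverse split is not given here. With so few probes, these readings are not read as a result about the pancreas or the liver. The part of these tissues in the member values was not tested.

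Other contractile sequences were divided between the thermal groups. Of 7 muscle and contractile probes, 3 had a higher mean in HT and 4 a lower one over 9 fish, with a median log2 fold change of -0.04 and none called by limma (lowest adjusted p = 0.254), and 1 at an unadjusted p below 0.05. Cofilin 2, an actin-severing protein of muscle, had a log2 fold change of -0.34 (SE 0.19, limma adjusted p = 0.374). Both mitochondrial creatine kinase sequences, which serve energy transfer, had changes of 0.07 and -0.04.

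Folding and matrix genes related to the role of hsp47 were also divided. Of 6 probes, 3 were higher in HT and 3 lower over 9 fish (median -0.08), limma called none (lowest adjusted p = 0.153), and 2 had an unadjusted p below 0.05. Calreticulin, a lectin chaperone of the endoplasmic reticulum, read 8.37 to 9.54 in the HT fish and 8.29 to 10.00 in the LT fish. Like the listed hsp47 probe, it was highest in LT 2. Pdia4, a protein disulphide isomerase, was highest in HT 1 (9.63), the fish with the lowest hsp47, and read 7.85 to 8.47 in the other 9. Wnt1 inducible signaling pathway protein 1, a secreted matrix-associated protein, was lower in all 5 HT fish (6.88 to 7.22) than in all 5 LT fish (7.23 in LT 2 and at least 7.58 in the others), with a log2 fold change of -0.64 (SE 0.17, limma adjusted p = 0.153) over 9 fish. The groups were only 0.016 apart at the closest, while the 2 spots of this probe read 7.38 and 6.98 in HT 4. The share of all probes with such a separation over 10 fish is not given here, so it is a description.

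The other heat shock and chaperone probes were divided as well. None of 9 had the same 5 fish highest. Only 4.27% of all 24200 probes had them, so this count in so short a list does not set hsp47 apart from other chaperones. Over 9 fish, 3 were higher in HT and 6 lower, and the median log2 fold change was -0.11. Limma called none (lowest adjusted p = 0.122), with 1 at an unadjusted p below 0.05. That was heat shock protein 10, a mitochondrial co-chaperonin, which read 12.02 to 12.42 in HT 2 to HT 5 and 13.81 in HT 1, against 12.58 to 12.90 in the LT fish.

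Among 172 other named sequences, likeness to hsp47 was ranked by Pearson's r over the 10 fish, as a description with no test. The most alike was ependymin, a secreted glycoprotein of extracellular fluid (r = 0.93), followed by the beta 1 subunit of Na+/K+ ATPase (0.88), amh, pyruvate kinase (0.86) and cyclin G1 (0.84). Of these, the ATPase subunit, amh and cyclin G1 had the same 5 highest fish as hsp47, and ependymin and pyruvate kinase shared 4 of the 5. Ependymin read 7.00, 8.78, 9.01, 8.60 and 8.07 in HT 1 to HT 5, against 7.94, 8.86, 7.74, 7.51 and 8.26 in LT 1 to LT 5, so that HT 1 was its lowest fish as well. Slow myosin heavy chain 3 ranked after 7 of the 172 sequences, skeletal muscle myosin heavy chain after 19 and the remaining myosin after 80. Of the other 24199 probes of the array, 4.27%, 11.7% and 51.7% were at least as like hsp47 as these 3 sequences were. All these points share one set of arrays, and HT 1, low for hsp47, weighs on each coefficient.

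For slow myosin heavy chain 3 the 5 most alike were amh, dmrt1, the same ATPase subunit, basic transcription factor 3-like 4 and cytosolic malate dehydrogenase. Amh, dmrt1 and the ATPase subunit shared all 5 of its highest fish and the last 2 shared 4. Coefficients are not given for this list, because the 2 sets of fish set them. Only amh ranked above skeletal muscle myosin heavy chain, whose values were mostly close to background, and 3 of the 172 sequences ranked above hsp47. The remaining myosin ranked after 41. Of the other 24199 probes, 0.909%, 2.29% and 35.1% were at least as like slow myosin heavy chain 3 as these 3 sequences were. The 2 sets of fish set these ranks and shares as well, and the members were chosen with their values in view. They are a description only.

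**Figure D4:**
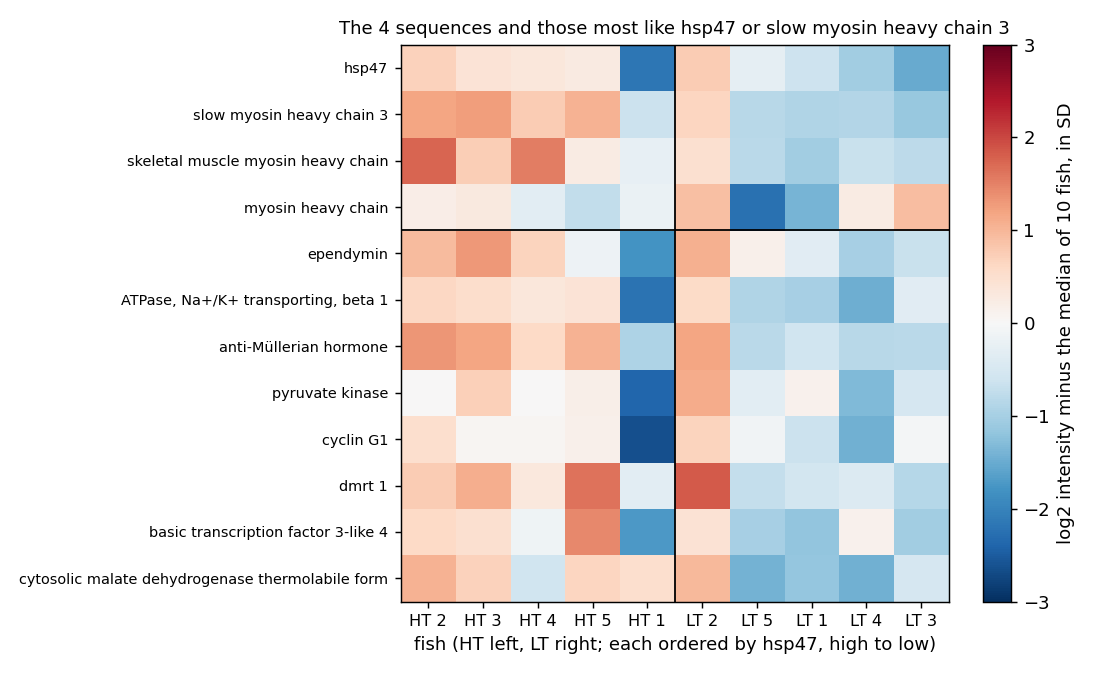
Log2 intensity minus the median of the 10 fish, in units of the SD over fish (colour, red above and blue below the median), for the 4 listed probes (above the line) and the 8 sequences most like hsp47 or slow myosin heavy chain 3 (below it), in HT fish (left) and LT fish (right), each ordered by hsp47. HT 1 is below the median in 11 of the 12 sequences, and LT 2 is above it in all 12.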

How the data were processed

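The authors deposited scanner files from Agilent Feature Extraction, which hold intensity values of each spot (foreground, local background and processed signal) not normalized between arrays, and a table of normalized log2 values (21701 probes), which was used as an alternative. Here, limma 3.58.1 (R 4.3.3) applied normexp background correction with an offset of 50. After removal of control spots, quantile normalization was run over the 10 arrays, and the unflagged spots of each probe were averaged. Median intensities were used, since the files hold no means. A probe was reliable if at least 50% of its spots were at least 2 times background, unsaturated and unflagged. Groups were compared with lmFit and eBayes, adjusted by Benjamini-Hochberg over 24200 probes. Correlations used 100000 permutations. Named genes were the members, the fixed lists and the 5 named sequences most like hsp47 and slow myosin heavy chain 3. As the scanner files name no genes, names came from the study's own list of 176 probe identifiers. Members and lists were chosen with earlier results of these data known. The deposited log2 table lacks CUST_12703_PI416070213 and CUST_12705_PI416070213. The headers place the arrays of one replicate number on one slide, and deviations from the group means of the 2 arrays of a slide correlated at 0.37, 0.487, 0.0822, -0.235 and 0.189 on slides 1 to 5. The limma call was tested on simulated data with 200 changed probes. Alternatives covered background correction, normalization, filters, variance model, the slide as a block and each fish left out. Figures were drawn with matplotlib 3.10.9.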

Additional observations from a re-analysis of the deposited data

Results flagged for a closer look

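A fish was looked at again where its gap to the nearest fish of its group, divided by the range of the 5 fish, exceeded 0.71. This was checked in 88 groups of 5 values (the 12 member probes and the listed genes, in HT and in LT) and found in 20. Chance alone gives about 1 in 20 groups, and the probes share fish, so the flags are not independent.

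HT 1 was far below the other HT fish for hsp47 (ratio 0.857 for CUST_3016_PI416070213 and 0.72 for CUST_3018_PI416070213) and for slow myosin heavy chain 3 (0.732 for CUST_20632_PI416070213). It was also lowest for elastin microfibril interfacer 2 (0.823) and highest for obscurin (0.76), pdia4 (0.897), heat shock protein 10 (0.778) and betaine homocysteine S-methyltransferase (0.802). LT 2 was far above the other LT fish for slow myosin heavy chain 3 in all 3 probes (0.834, 0.716 and 0.836 for CUST_20632_PI416070213, CUST_20633_PI416070213 and CUST_20634_PI416070213). The same fish stood out for skeletal muscle myosin heavy chain (0.747 for CUST_12705_PI416070213), for CUST_21290_PI416070213 of the sequence annotated only as myosin heavy chain (0.862), for amh (0.881) and for dmrt1 (0.835).

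HT 4 was far above the other HT fish for myosin light chain 1 (0.846), gelatinase (0.886) and SOX-8 (0.721). In the LT group, LT 4 was low for elastin microfibril interfacer 2 (0.78) and LT 3 for tcp1 protein (0.73).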

How the results depend on the processing

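The count of called member probes (0 of 12) and of all called probes (0 of 24200) over 9 fish was the same under 20 of 24 alternatives. Among these, no minimum fold change, a minimum of 2 and no reliability filter could not have differed. The lowest limma adjusted p over all probes was 0.0752, which leaves nothing for those settings to call. The processed signal scaled to the 75th percentile called 6 member probes and 2345 probes in all, normexp with that scaling 7 and 1658, and array weights over all 10 fish 6 and 1856. Over all probes these 2 scalings moved the median log2 fold change to 0.30 and 0.41, and the member differences are to be read against that shift. Leaving out single fish, 0 to 5 member probes and 0 to 698 probes were called, all without LT 2. With the slide as a replicate block, which pairs the arrays, 0 probes were called over 9 and over 10 fish, and no call of a member changed. The log2 fold changes of hsp47 (0.35 to 1.01), slow myosin heavy chain 3 (1.57 to 3.94) and skeletal muscle myosin heavy chain (0.27 to 2.71) stayed positive under all alternatives. That of the sequence annotated only as myosin heavy chain ranged from -0.14 to 0.21 when single fish were left out (-0.04 without LT 1, -0.14 without LT 5), and was -0.044 with the replicate block over 9 fish.

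The correlation of hsp47 with skeletal muscle myosin heavy chain passed adjustment with cyclic loess (r = 0.75), with group means removed (0.76) and without HT 1 (0.80), was 0.23 with normexp at the 75th percentile, and ranged from 0.63 to 0.80 with each fish left out. It ranged from 0.23 to 0.81 over all 20 alternatives. That of hsp47 with the sequence annotated only as myosin heavy chain turned negative with the processed signal (-0.025), cyclic loess (-0.013) and the replicate block (-0.46), and ranged from -0.16 to 0.23 with each fish left out. That of the 2 myosins was -0.071 with the replicate block. The causes were not tested. The planned correlation of hsp47 with slow myosin heavy chain 3, and its difference from the other pairs, were not run because the fish fell into 2 sets. The planned adjustment had also covered the pairs with slow myosin heavy chain 3. Those pairs were dropped after the values were seen, so passing adjustment refers here to the smaller family of 3 pairs. The 5 highest fish of both genes shared 5 fish under all normalizations, and 4 where CUST_3017_PI416070213 stood for hsp47, a comparison added after seeing the data. Signal over background limited slow myosin heavy chain 3 in the low set and skeletal muscle myosin heavy chain in 7 fish.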
